A study of Mus musculus with 8 samples.

Results

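The 45 genes described here encode the machinery of homologous recombination and of the Fanconi anaemia pathway in the mouse. They were taken by name from a fixed list, which was chosen with earlier results of these data known. All 45 had a row among the 27179 Entrez identifiers of the count table, and all 45 were among the 14382 genes with enough reads to be tested. They were compared between whole primary tumours of 4T1.13, a metastatic mouse mammary carcinoma line, grown orthotopically in mammary fat pads of BALB/c hosts, 4 with the vector control (VC) and 4 with miR-21 knockdown (miR-21-KD). Both lines carried a lentiviral vector with mCherry and hygromycin resistance. In miR-21-KD the H1 promoter of this vector drives an RNA that binds mature miR-21 and so blocks its activity, and in VC it drives a scrambled RNA. Each line was a pool of several single-cell clones, the hosts were immunocompetent young adult females, and the labels give 100000 injected cells and recovery on day 14, whereas the methods of the paper give an earlier day, at which miR-21-KD tumours began to regress. Mir21a, the precursor gene (Entrez 387140), was at 0 counts in all 8 tumours, and the vector acts on the mature RNA, so the table does not check the knockdown.

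Homologous recombination repairs a broken chromosome by copying the intact sister chromatid, and it therefore works mainly in S and G2 phase. The broken end is first resected to a single strand, RPA coats that strand, the BRCA proteins replace RPA with the recombinase, and helicases and nucleases then resolve the joined molecules. The Fanconi pathway handles covalent links between the strands of DNA. Its core complex attaches ubiquitin to FANCD2 and FANCI, which opens the way for nucleases and then for recombination. Many of these genes are transcribed under E2F control as cells enter S phase, and loss of several of them predisposes to breast and ovarian cancer.

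Between 12134849 and 13592695 reads were counted on genes in VC tumours and between 12550898 and 12783800 in miR-21-KD tumours, so depth was alike in both groups. Every member had at least 35 counts in every tumour, and at most 2122. Values below are CPM, the count of a gene relative to the total of its library, after TMM scaling for the composition of the library. A count of 0 would allow up to 0.244 CPM. As a whole tumour holds other cells too, marker lists were summed in the same way. Of 15 proliferation genes 13 were lower in miR-21-KD tumours and none was higher, and their summed CPM was 1942 to 2707 in VC and 721 to 1966 in miR-21-KD tumours. The sums were 1134 to 2008 against 2045 to 3699.6 for 12 leukocyte genes (7 higher), 1794 to 4089 against 5906 to 12328.5 for 8 fibroblast genes (6 higher), 85.1 to 319 against 428 to 1123 for 5 adipocyte genes (5 higher) and 353 to 628 against 514 to 734 for 5 endothelial genes (1 higher). Of the fibroblast genes, Col1a1 and Col1a2 had the highest means in either group, so they weigh most in that sum. Pdgfra (log2 fold change -0.36) and Pdgfrb (0.67) were not called. The 8 genes of mammary epithelium summed to 1299 to 2264 in VC and 972 to 2040.05 in miR-21-KD tumours, and went both ways. Krt18 was lower (log2 fold change -1.15), Krt8 was not called (-0.88), and these had the highest means of the 8 in either group, whereas Krt19, Krt14, Krt7, Epcam, Cdh1 and Cldn4 were higher (1.26 to 3.60). Replicate 2 stood apart among the miR-21-KD tumours, with the highest proliferation sum and the lowest leukocyte (2045), fibroblast (5906) and adipocyte (428) sums of its group. Its proliferation sum of 1966 lay beside the 1942 of VC replicate 4, whereas the other miR-21-KD tumours had 721, 954 and 842.

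Many recombination and Fanconi genes were lower in miR-21-KD tumours, among them Brca1, Brca2, Chek1 and Chek2, and none was called higher. Of the 45 members, 24 (53.3%) passed an adjusted p of 0.05 downwards (called lower, edgeR's quasi-likelihood test with Benjamini-Hochberg adjustment over all tested genes, which is the source of every adjusted p given without another tool), and 0 passed upwards. Among all tested genes 19.5% were lower and 19.6% higher at this threshold. As the list was chosen with earlier results of these data known, the shares in this paragraph are a description. The median log2 fold change of the members was -0.56, against -0.01 over all tested genes, and 11 of the 24 were lower by more than 2-fold. The count of 11 was not the same in every fit. Brca1, for 1, was at -1.01 on the log2 scale, but at -0.99 without VC replicate 2 and -0.98 with upper-quartile scaling. In 21 members (46.7%) the highest miR-21-KD value was below the lowest VC value, against 18.8% of all tested genes, and in 2 members (4.44%) the groups were separated the other way, against 16.4%. Of the 21 members not called, 14 had a log2 fold change below 0 and 7 above, and 2 of the 7 had an unadjusted p under 0.05. The upward calls by other tools were 2 with DESeq2, both named below, and 0 with limma-voom. Because RNA of whole tumours was measured, a smaller share of cells that express a gene and less of its RNA in each cell cannot be told apart.

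**Figure D1:**
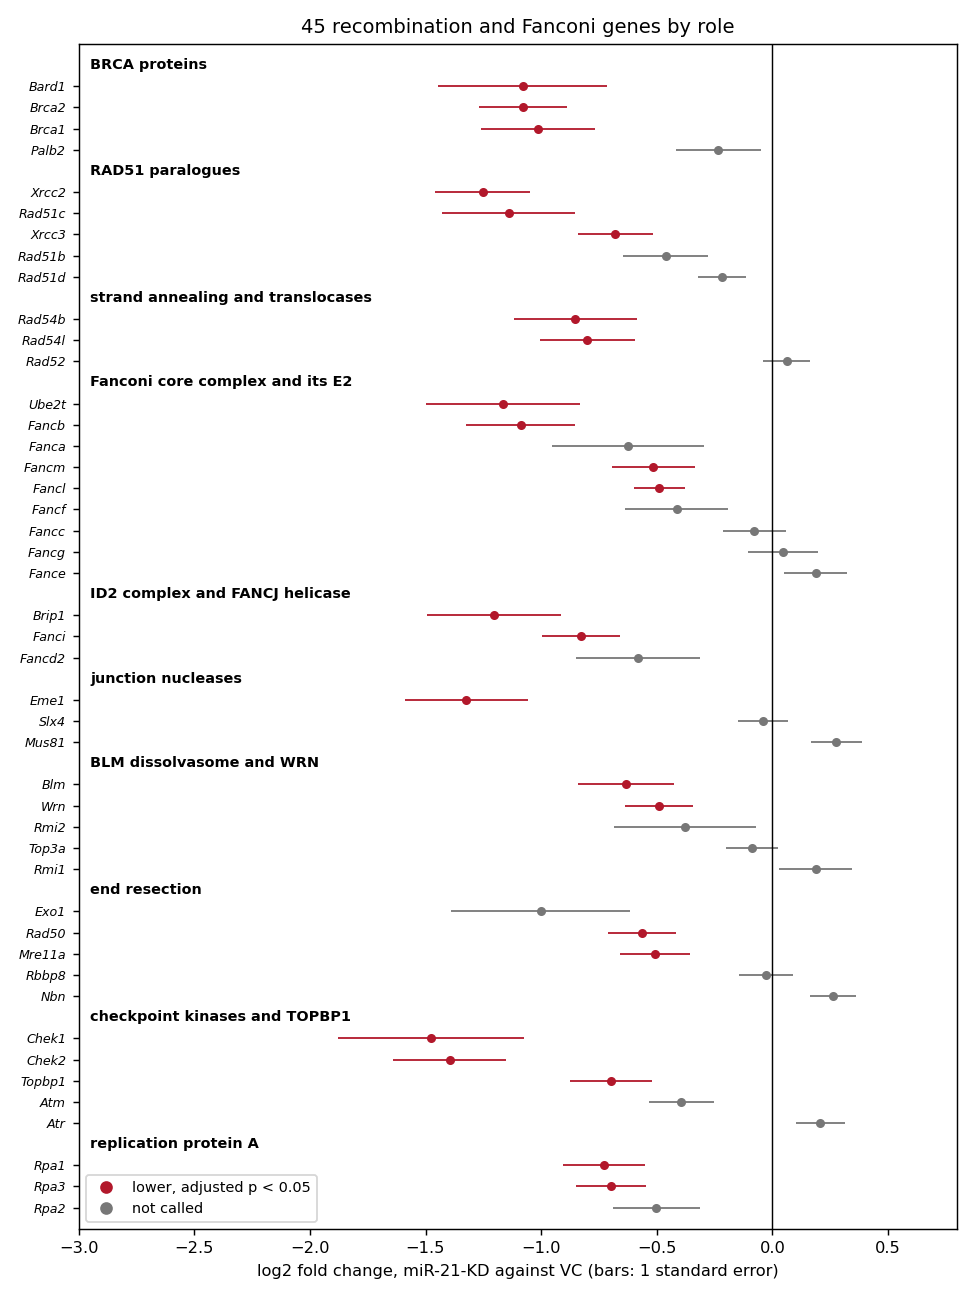
Log2 fold change of each of the 45 members between miR-21-KD and VC tumours (4 against 4), grouped by role, with bars of 1 standard error. Red points, 24 in all, passed an adjusted p of 0.05, and all of them lie left of 0, whereas the 21 grey points did not pass and reach from -1.001 for Exo1 to 0.28 for Mus81.

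The number of calls depended on single tumours, while the direction did not. It was 13 without VC replicate 3, miR-21-KD replicate 3 or miR-21-KD replicate 4, 15 without VC replicate 2, and 29 without miR-21-KD replicate 2, all of them downwards. The share of all tested genes called lower moved with it, to 10.2%, 12.2%, 11.1%, 10.8% and 24.3% in these fits in the same order. In each of the 24 called members, miR-21-KD replicate 2 had the highest value of its group. In 13 members the call held under every alternative and every omitted tumour, and these were Brca1, Brca2, Rad51c, Xrcc2, Xrcc3, Fancb, Fancl, Fanci, Brip1, Eme1, Chek2, Rpa1 and Rpa3. The other 11 (Bard1, Rad54l, Rad54b, Ube2t, Fancm, Blm, Wrn, Mre11a, Rad50, Chek1 and Topbp1) each lost the call without VC replicate 3, without miR-21-KD replicate 3 and without miR-21-KD replicate 4, and some of them also without VC replicate 1, VC replicate 2 or miR-21-KD replicate 1. All 11 stayed below 0 in these fits, with an adjusted p of up to 0.113.

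The BRCA proteins load the recombinase on resected DNA. Brca2 (Entrez 12190, chromosome 5, 150522630 to 150570329, GRCm38), the loader itself, had 19.8, 21.2, 22.7 and 16.0 CPM in the VC tumours, against 8.80, 12.9, 8.11 and 7.97 CPM in the miR-21-KD tumours (replicates 1 to 4 in this order, as in all such series below). The groups did not overlap, and the mean went from 19.9 ± 2.88 to 9.44 ± 2.32 CPM (mean ± SD, n = 4 per group), a log2 fold change of -1.08 (standard error, SE, 0.19, adjusted p = 0.00694 from edgeR). Brca1 (Entrez 12189, chromosome 11, 101488764 to 101551955) encodes a ubiquitin ligase that favours resection. It had 36.5, 37.5, 39.1 and 29.2 CPM in VC, against 11.3, 27.2, 16.1 and 15.8 CPM in miR-21-KD tumours. All miR-21-KD values were below the lowest VC value, although replicate 2 came close to it, and the log2 fold change was -1.01 (SE 0.25, adjusted p = 0.0153 from edgeR). Bard1, the partner of BRCA1 in the ligase, had 24.4, 29.1, 33.5 and 20.7 against 6.94, 23.8, 11.4 and 8.75 CPM. Here miR-21-KD replicate 2 lay inside the VC range, and it fell by 1.08 on the log2 scale (adjusted p = 0.0444 from edgeR). The call was lost without filtering on low counts (log2 fold change -1.10, adjusted p = 0.0591) and in 6 of 8 fits with a tumour left out, in which the log2 fold change was -1.12 to -0.88. Palb2, which bridges BRCA1 and BRCA2, had 8.32 ± 1.16 and 7.08 ± 1.25 CPM (mean ± SD, n = 4 per group) and was not called (log2 fold change -0.23, adjusted p = 0.335 from edgeR).

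The paralogues of the recombinase form small complexes that stabilise its filament. Of the 5, Xrcc2, Rad51c and Xrcc3 were lower. Xrcc2 (Entrez 57434, chromosome 5, 25689812 to 25705825) had 19.7, 27.9, 24.8 and 18.3 CPM in VC, against 7.83, 12.3, 10.3 and 7.58 CPM in miR-21-KD tumours. Its groups were clearly separated, and its adjusted p of 0.00629 (edgeR, log2 fold change -1.25, SE 0.20) was the smallest of any member. Rad51c had 10.5, 14.7, 12.3 and 10.5 against 4.68, 9.03, 3.97 and 4.06 CPM, and Xrcc3 had 14.8, 22.0, 20.3 and 18.6 against 11.1, 14.4, 10.4 and 11.5 CPM. Neither overlapped between groups, and they fell by 1.14 (adjusted p = 0.0169) and 0.68 (adjusted p = 0.0143) on the log2 scale (edgeR). Rad51b and Rad51d were not called, with log2 fold changes of -0.46 and -0.22 (adjusted p of 0.0743 and 0.120 from edgeR).

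Rad54l and Rad54b encode motor proteins that act on the recombinase filament, and Rad52 encodes a protein that anneals single strands. Rad54l had 10.9, 11.96, 14.5 and 13.2 CPM in VC, against 6.05, 10.3, 6.40 and 6.25 CPM in miR-21-KD tumours. Rad54b had 8.10, 7.41, 9.13 and 7.09 against 6.99 CPM in miR-21-KD replicate 2 and 3.71, 3.73 and 3.13 CPM in the others. Both were called lower, by 0.80 (adjusted p = 0.0178) and 0.85 (adjusted p = 0.0336) on the log2 scale (edgeR), and in both the miR-21-KD group was close to VC only through replicate 2. Of the exon bases of Rad54b 39.2% also belong to other genes, nearly all of them to Fsbp on the same strand, so its count is uncertain. Rad52 was at 13.2 to 14.0 CPM in VC, against 13.4 to 14.5 CPM in miR-21-KD tumours, a log2 fold change of 0.06 (SE 0.10, adjusted p = 0.652 from edgeR).

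Of the 9 genes for the core complex and its ubiquitin-conjugating enzyme, Ube2t, Fancb, Fancl and Fancm were lower and 5 were not called. The first 3 belong to the module that transfers ubiquitin. Ube2t (Entrez 67196, chromosome 1, 134962565 to 134974162), the conjugating enzyme, had 20.6, 21.8, 20.5 and 15.7 CPM in VC, against 3.95, 14.5, 8.67 and 7.89 CPM in miR-21-KD tumours, a log2 fold change of -1.17 (SE 0.33, adjusted p = 0.0257 from edgeR). The groups did not overlap, but replicate 2 lay near the lowest VC tumour. Fancb (Entrez 237211, X chromosome, 164980592 to 164997272), a scaffold of the catalytic module, had 9.87, 10.3, 10.5 and 8.63 against 4.28, 6.91, 3.73 and 3.52 CPM. Fancl, the ligase subunit, had 17.8, 19.0, 16.6 and 17.02 against 11.4, 13.7, 12.8 and 12.3 CPM, a narrow and complete separation. They fell by 1.09 (adjusted p = 0.0110) and 0.49 (adjusted p = 0.0126) on the log2 scale (edgeR), and 16.96% of the exon bases of Fancl lie in exons of Vrk2 on the other strand. Fancm, the translocase that anchors the complex, passed narrowly (log2 fold change -0.52, adjusted p = 0.0487 from edgeR) and missed the threshold in 9 of 15 alternatives. Fancc, Fance and Fancg had log2 fold changes of -0.08, 0.19 and 0.04 with standard errors of 0.14 to 0.15. Fanca and Fancf had -0.63 and -0.41 (adjusted p of 0.155 and 0.162 from edgeR). Fanca passed with the replicate number as a block (adjusted p = 0.0290 from edgeR) and without miR-21-KD replicate 2 (log2 fold change -1.06, adjusted p = 0.00595).

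Fanci (Entrez 208836, chromosome 7, 79391929 to 79450264) encodes a target of the core complex. It had 11.9, 14.3, 13.2 and 11.6 CPM in VC, against 7.10, 9.19, 6.24 and 6.25 CPM in miR-21-KD tumours, without overlap, a log2 fold change of -0.83 (SE 0.17, adjusted p = 0.00937 from edgeR). Polg on the other strand shares 13.4% of its exon bases. Its partner Fancd2 had 17.3, 14.9, 15.9 and 11.8 against 6.86, 15.5, 10.3 and 7.35 CPM and was not called (log2 fold change -0.58, adjusted p = 0.110 from edgeR). The miR-21-KD value that lay inside the VC range was replicate 2, and without that tumour Fancd2 passed (log2 fold change -0.88, adjusted p = 0.0102). Brip1 (Entrez 237911, chromosome 11, 86058138 to 86201193), the FANCJ helicase that binds BRCA1, had 16.1, 22.2, 20.3 and 16.6 CPM in VC, against 5.49, 13.7, 7.46 and 6.02 CPM in miR-21-KD tumours. It did not overlap between groups and had a log2 fold change of -1.20 (adjusted p = 0.0150 from edgeR, SE 0.29).

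Joined DNA molecules are cut by nucleases or dissolved by the BLM complex. Eme1 (Entrez 268465, chromosome 11, 94644996 to 94653964), the regulatory partner of the MUS81 nuclease, had 12.6, 12.8, 13.2 and 11.2 CPM in VC, against 3.63, 8.17, 4.13 and 3.91 CPM in miR-21-KD tumours. Its mean fell to 39.9% of VC, a log2 fold change of -1.32 (SE 0.27, adjusted p = 0.00922 from edgeR), and 12.1% of its exon bases lie in genes on the other strand. Mus81 itself had 14.7, 14.4, 18.1 and 15.3 against 18.4, 19.7, 18.9 and 18.8 CPM. The lowest miR-21-KD value exceeded the highest VC value, but the log2 fold change of 0.28 was not called (adjusted p = 0.0737 from edgeR) and passed with DESeq2 (adjusted p = 0.0345), upper-quartile scaling (0.0446) and a minimum of 10 counts in every tumour (0.0419). Slx4, the scaffold that holds MUS81, had 26.2 ± 2.03 and 25.5 ± 2.43 CPM (mean ± SD, n = 4 per group).

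Blm, the helicase mutated in Bloom syndrome, had 24.2, 26.6, 26.5 and 21.01 CPM in VC, against 14.8, 23.2, 13.4 and 12.03 CPM in miR-21-KD tumours. Wrn, the helicase mutated in Werner syndrome, had 33.4, 35.2, 34.8 and 34.1 against 28.6, 29.2, 19.8 and 20.2 CPM. They fell by 0.63 (adjusted p = 0.0397) and 0.49 (adjusted p = 0.0292) on the log2 scale (edgeR), and only Wrn separated the groups. The other subunits of the BLM complex were not called, with log2 fold changes of -0.09 for the topoisomerase gene Top3a, 0.19 for Rmi1 and -0.38 for Rmi2.

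End resection starts with the MRN complex of MRE11, RAD50 and NBN. Rad50 had 62.5, 67.6, 64.0 and 52.8 CPM in VC, against 40.02, 54.2, 38.0 and 34.9 CPM in miR-21-KD tumours. Mre11a had 40.4, 36.7, 40.9 and 31.4 against 21.5, 33.6, 25.5 and 24.5 CPM. In both, every miR-21-KD tumour but replicate 2 was below the VC range, and the falls were 0.56 (adjusted p = 0.0185) and 0.51 (adjusted p = 0.0296) on the log2 scale (edgeR). Nbn, the third subunit, had 22.5, 20.4, 21.8 and 19.5 against 27.4, 25.5, 25.1 and 22.9 CPM, so its values were higher in every miR-21-KD tumour than in any VC tumour. The log2 fold change of 0.26 was not called (SE 0.10, adjusted p = 0.0648 from edgeR) and passed with DESeq2 (adjusted p = 0.0312), upper-quartile scaling (0.0384) and a minimum of 10 counts in every tumour (0.0375). Rbbp8, which encodes the MRE11 cofactor CtIP, was level at 39.3 ± 4.83 and 38.6 ± 3.95 CPM (mean ± SD, n = 4 per group). Exo1, the exonuclease of long resection, had 13.9, 18.4, 21.3 and 13.6 against 4.92, 16.6, 5.75 and 6.33 CPM. Its log2 fold change of -1.001 had the second largest standard error of the members (0.39) and was not called (adjusted p = 0.0677 from edgeR), whereas it was -1.57 without miR-21-KD replicate 2 (adjusted p = 0.00174) and -1.14 with the replicate block (adjusted p = 0.0250). Exo1 also passed with DESeq2 (-0.99, adjusted p = 0.0302) and limma-voom (-1.15, adjusted p = 0.0267).

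The checkpoint kinases stop the cell cycle while DNA is damaged. Chek1 (Entrez 12649, chromosome 9, 36708482 to 36727065) had the most negative log2 fold change of the members with all tumours kept, with 41.8, 58.9, 59.0 and 45.3 CPM in VC, against 8.07, 36.4, 15.2 and 14.1 CPM in miR-21-KD tumours. This log2 fold change was -1.48 (SE 0.40, adjusted p = 0.0220 from edgeR), and the call was lost in 4 of 8 fits with a tumour left out (-1.41 to -1.37, adjusted p of 0.0555 to 0.0641). Chek2 (Entrez 50883, chromosome 5, 110839979 to 110874145) had 23.9, 25.2, 27.6 and 15.9 against 6.62, 12.7, 7.29 and 8.52 CPM, a log2 fold change of -1.40 (SE 0.25, adjusted p = 0.00697 from edgeR), and its fold change was the larger of the pair without VC replicate 4 (-1.54 against -1.53), miR-21-KD replicate 1 (-1.28 against -1.23) or miR-21-KD replicate 4 (-1.38 against -1.37). Both separated the groups. Topbp1, which activates ATR, had 145, 153, 167 and 132 CPM in VC, 131 CPM in miR-21-KD replicate 2 and 79.5, 79.0 and 78.9 CPM in the other miR-21-KD tumours. It fell by 0.70 on the log2 scale (adjusted p = 0.0177 from edgeR), and replicate 2 lay only just below the lowest VC tumour. The kinases upstream were not called. Atr had 21.1 ± 1.55 and 24.3 ± 2.12 CPM (mean ± SD, n = 4 per group; log2 fold change 0.21, adjusted p = 0.143 from edgeR). Atm had 44.4 ± 3.97 and 33.8 ± 6.16 CPM (mean ± SD, n = 4 per group), without overlap, and its log2 fold change of -0.39 narrowly missed the threshold (adjusted p = 0.0522 from edgeR, and 0.0271 to 0.0487 in 4 of the alternatives).

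RPA is the trimer that covers single-stranded DNA in replication and repair. Rpa1 had 112, 138, 125 and 105 CPM in VC, against 56.7, 100.4, 66.3 and 66.0 CPM in miR-21-KD tumours. Rpa3 had 19.9, 25.9, 22.4 and 21.5 against 10.6, 16.3, 14.3 and 14.1 CPM. Both separated the groups and fell, by 0.73 (adjusted p = 0.0154) and 0.70 (adjusted p = 0.0115) on the log2 scale (edgeR). Rpa2 had 24.02, 34.6, 30.6 and 36.2 against 20.1, 27.3, 16.5 and 24.7 CPM and was not called (log2 fold change -0.50, adjusted p = 0.0610 from edgeR). It passed with the replicate block (adjusted p = 0.0226), with DESeq2 (0.0410), without VC replicate 1 (0.0342) and without miR-21-KD replicate 2. Per kilobase of exon, the 3 subunits were among the 5 highest members in VC tumours, with 33.5 CPM per kilobase for Rpa3, 23.4 for Rpa1 and 17.3 for Rpa2, beside 28.6 for Topbp1 and 17.6 for Ube2t. The lowest were Rad51b, Rad54b and Rmi2 with 1.37, 1.499 and 1.54 CPM per kilobase. Differences between neighbours in this order were not tested, and the exon lengths are those of GENCODE M21.

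**Figure D2:**
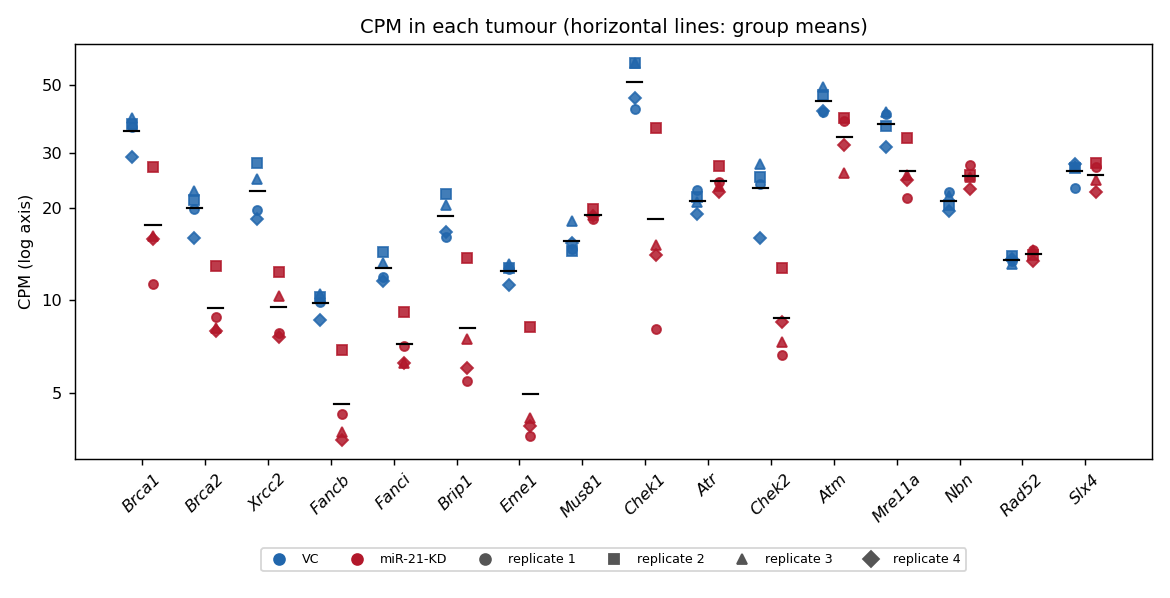
CPM of 16 members in each tumour on a log axis, with VC in blue, miR-21-KD in red, replicates 1 to 4 by symbol and group means as lines. The squares of replicate 2 top the miR-21-KD group in Brca1, Brca2, Chek1, Chek2 and Eme1, and Mus81, Nbn, Rad52, Slx4 and Atr were not called.

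The balance between members that act in the same complex or step was compared as well. The log2 ratio of the CPM of 2 partner genes within a tumour hardly depends on the scaling of the library, and it was compared between the groups for 25 textbook pairs, which were listed after the values of the members had been seen and which share genes. The groups did not overlap in 10 of the 25. Each of these 10 has an exact two-sided permutation p of 0.0286, the smallest that 4 against 4 tumours allow, and 0.0714 after Benjamini-Hochberg adjustment over the 25, so none passed. Taken by replicate number instead, a comparison added after seeing the data, 17 of the 25 ratios shifted one way in all 4 same-numbered pairs of tumours, 7 of them with overlapping groups, and the smallest exact two-sided p that 4 such pairs allow is 0.125. The widest shift was in Chek1 over Atr, the kinase over its upstream kinase, with log2 ratios of 0.88, 1.45, 1.499 and 1.25 in VC and -1.58, 0.41, -0.63 and -0.67 in miR-21-KD tumours. VC tumours thus had more Chek1 than Atr reads and 3 of the 4 miR-21-KD tumours fewer. The ratio of Eme1 to Mus81 was -0.22, -0.18, -0.46 and -0.45 against -2.34, -1.27, -2.19 and -2.26. Among the other pairs without overlap, the lower ratios were Xrcc2 over Rad51d, Chek2 over Atm, Topbp1 over Atr, Brca2 over Palb2, Mre11a over Nbn and Fancb over Fancl, with mean differences of -1.04, -1.01, -0.94, -0.85, -0.78 and -0.65 between miR-21-KD and VC tumours. Mus81 over Slx4 was higher without overlap by 0.32 and Rbbp8 over Mre11a by 0.50. Among the smaller shifts were mean differences of -0.06 for Rad50 over Mre11a, 0.05 for Rpa3 over Rpa1 and -0.14 for Bard1 over Brca1, in each case with overlapping groups. Without miR-21-KD replicate 2 they were -0.06, 0.13 and -0.27.

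**Figure D3:**
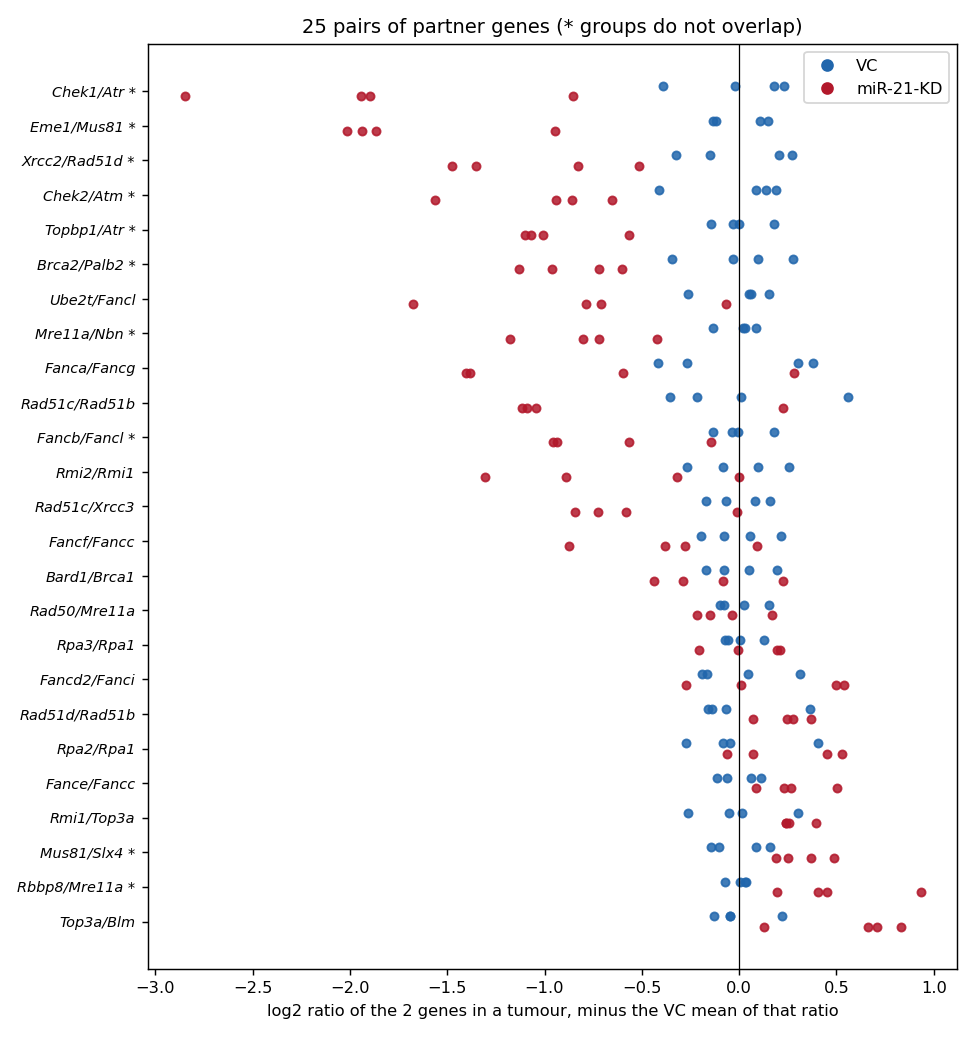
Log2 ratio of 25 pairs of partner genes in each tumour, drawn as the distance from the VC mean of the same ratio, with VC in blue and miR-21-KD in red. The pairs are sorted by the mean difference, from -1.88 for Chek1/Atr to 0.58 for Top3a/Blm, and an asterisk marks the 10 pairs whose groups do not overlap.

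The promoters of the members were read for sequence features that the choice of the list did not use. RefSeq promoters (GRCm38.p6, 250 bases before to 50 after the start of transcription) were at hand for 34 of the 45 members. Letters of the E2F site (TTTCCCGC, TTTGGCGC, TTTCGCGC or TTTGCCGC, either strand) occurred in 7 of the 34 (20.6%), against 2.61% of the 27025 genes with a promoter. Those 27025 were not limited to genes tested in these tumours, whereas every member was tested. The CCAAT box (CCAAT, either strand) occurred in 64.7% of the members and 41.1% of all genes, and the TTTGAA of the cell cycle homology region (either strand) in 8.82% and 20.2%. The members' promoters had a median GC content of 59.8%, against 52.7% over all, and the letters of the E2F site are themselves rich in G and C. Of the 7 genes with E2F letters, Bard1, Brca2, Chek2, Rad51c and Topbp1 were called lower (5 of 20 called members with a promoter), and Fancg and Rmi1 were not (2 of 14). The CCAAT box went the other way, with 12 of 20 called members and 10 of 14 not called, and neither split was tested. The windows are shown because they carry the letters in genes on both sides of the threshold. Each is written 5′ to 3′ on the strand of the gene with up to 20 bases on either side, and capitals mark the match, which reads as its reverse complement where the site is on the other strand.

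Brca2 (chr5:150522433-150522480, plus strand): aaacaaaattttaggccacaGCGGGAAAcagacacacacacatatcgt
Bard1 (chr1:71103154-71103201, minus strand): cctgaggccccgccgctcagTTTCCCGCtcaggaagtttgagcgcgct
Chek2 (chr5:110839811-110839858, plus strand): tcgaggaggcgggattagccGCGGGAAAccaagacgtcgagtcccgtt
Topbp1 (chr9:103305178-103305225, plus strand): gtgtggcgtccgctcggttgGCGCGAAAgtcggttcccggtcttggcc
Rad51c (chr11:87404932-87404979, minus strand): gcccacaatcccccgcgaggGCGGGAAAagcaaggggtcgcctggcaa
Rad51c, second start (chr11:87404468-87404515, minus strand): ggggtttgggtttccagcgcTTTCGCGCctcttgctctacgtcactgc
Fancg (chr4:43010326-43010373, minus strand): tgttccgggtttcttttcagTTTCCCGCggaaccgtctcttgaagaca
Rmi1 (chr13:58402603-58402646, plus strand): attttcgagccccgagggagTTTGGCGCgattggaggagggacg

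Between the match and the RefSeq start of transcription lie 160 bases in Brca2, 201 in Bard1 and 144 in Chek2. In Topbp1 the distance is 121 bases and in Fancg 44. GENCODE M21 places the gene start elsewhere, at 71103146 in Bard1, 103305215 in Topbp1 and 43010506 in Fancg. By that annotation the Fancg letters lie inside the gene, so the distances hold for the RefSeq starts alone. With the letters GCGGGAAA, Brca2, Chek2 and Rad51c had log2 fold changes of -1.08, -1.40 and -1.14. With the same site on the other strand, Bard1 had -1.08 and Fancg 0.04. Brca1, Chek1, Eme1, Brip1 and Fancb were called lower with none of these letters in their window.

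Since the knockdown acts on miR-21, the 3′ untranslated regions of the members were searched for its seed match. The mature sequence in RefSeq, with the seed (bases 2 to 8) in capitals, comes from chr11:86584120-86584141 (minus strand, GRCm38.p6).

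mmu-miR-21a-5p: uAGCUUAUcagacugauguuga

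A match to the seed (ATAAGCT) was found in 1 GENCODE M21 transcript of 2 of the 45 members (4.44%), against 6.96% of 13377 tested genes. The members' untranslated regions had a median of 553 bases and those of tested genes 1007. Both sites are shown with the match in capitals, at base 2095 of that region in Brip1 and base 243 in Rpa2.

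Brip1: tcactgctgaATAAGCTcaccccttcc
Rpa2: agaaattccaATAAGCTagtcaggact

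Brip1 was called lower (log2 fold change -1.20) and Rpa2 was not called (-0.50). Only this match in 1 transcript of a gene was searched, and a direct effect of miR-21 on these 2 RNAs was not tested.

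Other repair genes were read from 5 lists written from general knowledge, with earlier results of these data known. Their counts stand beside the 19.5% of all tested genes that were lower and the 19.6% that were higher. Of 42 further recombination, Fanconi and damage signalling genes tested, 21 were lower and 0 higher (median log2 fold change -0.41). Dmc1, the meiotic recombinase, had too few reads for a test. The smallest adjusted p was that of Swi5, a recombination mediator, with 202 ± 8.61 CPM in VC, against 128 ± 13.1 CPM in miR-21-KD tumours (mean ± SD, n = 4 per group; adjusted p = 0.00558 from edgeR). H2ax, the histone that marks broken DNA, came next with 75.7 ± 7.60 and 29.8 ± 9.19 CPM (mean ± SD, n = 4 per group), a log2 fold change of -1.34 (adjusted p = 0.00571 from edgeR). Of 17 genes of end joining, the pathway that rejoins ends without a template, 6 were lower (median -0.32), and the smallest adjusted p were those of Trp53bp1 (-0.72) and the Ku subunit Xrcc6 (-0.80). Of 7 mismatch repair genes 5 were lower (median -0.54), among them Mlh3 (-0.69). Base excision repair had 6 of 19 lower, with the smallest adjusted p for Ung (-0.93) and Parp1 (-0.53), and 2 higher, the polymerase gene Polb (0.46) and the glycosylase gene Neil2 (1.35). Nucleotide excision repair had 3 of 21 lower, among them Cetn2 (-0.42) and Ercc3 (-0.34), and a median of -0.08. Over the 106 genes tested in the 5 lists, 41 were lower and 2 higher, and the differences between lists were not tested.

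Proliferation genes moved with the members that were called. The summed CPM of the 24 called members was 751, 853, 852 and 685 in VC and 374, 631, 399 and 387 in miR-21-KD tumours, beside proliferation sums of 2449.9, 2635, 2707 and 1942 against 721, 1966, 954 and 842. Ordered by either sum, the 3 miR-21-KD tumours other than replicate 2 were lowest. Next came miR-21-KD replicate 2 and VC replicate 4, in this order by the called members and in the reverse order by proliferation. The 21 members not called summed to 358, 384, 401 and 369.98 against 346, 387, 317 and 329, with overlapping groups. The 24 were chosen by this same contrast, so the sums are a description, and the part of proliferation or of the share of other cells in these results was not tested. Without miR-21-KD replicate 2 the median log2 fold change of the members was -0.72.

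**Figure D4:**
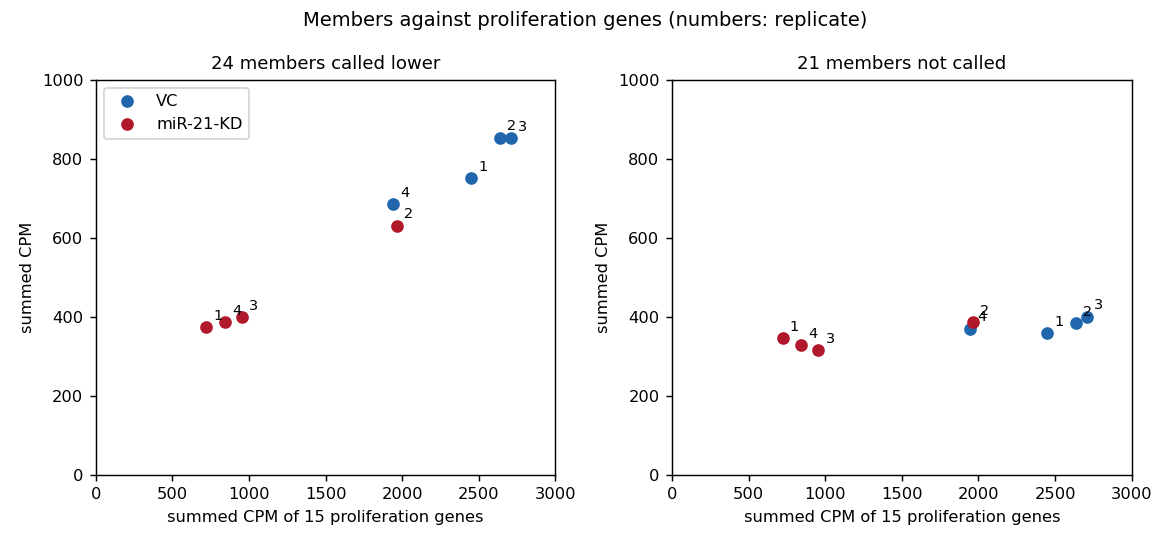
Summed CPM of the 24 members called lower (left) and of the 21 members not called (right) against the summed CPM of 15 proliferation genes, 1 point for each tumour with its replicate number. At left, miR-21-KD replicate 2 (631) lies beside VC replicate 4 (685) and apart from the other miR-21-KD tumours (374 to 399), and at right all 8 tumours lie between 317 and 401.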

How the data were processed

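RNA of 8 whole tumours was analysed, 4 VC and 4 miR-21-KD. The file deposited by the authors holds raw read counts for Entrez genes in 1 column per tumour, and all columns were used. The submitters' processing notes name Subread, featureCounts, edgeR, limma and the build mm10. Annotation, versions and strand setting are not given in the sources used here, so reads of genes that overlap on either strand may be exchanged. The paper calls the tumours biological replicates, the labels do not name the mice, and p-values measure the spread between these samples. Symbols matched 25275 of 27179 identifiers (RefSeq, GRCm38.p6). Positions and exon lengths came from GENCODE M21 (GRCm38, the assembly of mm10). No pair of tumours in a group was alike within sampling noise (chi-square per degree of freedom of 12.6 or more).

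Counts were filtered with filterByExpr (minimum count 10, minimum total 15), scaled with TMM and tested in edgeR 4.0.16 under R 4.3.3 with the robust quasi-likelihood test, with adjustment over all 14382 genes and a threshold of 0.05. Standard errors were derived from the F statistic. Partner ratios were compared with exact permutation tests. Fits were tested on simulated data. The alternatives were DESeq2 1.42.0, limma-voom (limma 3.58.1), library size and upper-quartile scaling, 2 other filters, the replicate block and each tumour left out. The labels number both groups 1 to 4. After removal of group means the same-numbered tumours correlated at 0.272, 0.421, 0.175 and 0.376 (other combinations, mean -0.105), each over 0.1. However, VC replicate 3 correlated best with miR-21-KD replicate 2. By this hint from the data alone the number was treated as a possible pairing. The main fit and the exact permutation tests leave it out, and the block is an alternative whose values are printed where a call changed.

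The members and gene lists were chosen with earlier results of these data known. The values of every tumour are given for at most 3 called members of a role with the smallest adjusted p, for Brca1 and Brca2 and for some members not called, and the 2 genes with the smallest adjusted p of each other repair list are named, except for 1 that is not reported here. Dmc1, Fsbp, Vrk2, Polg, Polb, Neil2, the epithelial and fibroblast markers and the members not called whose tumour values are given were named after their values were seen.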

Additional observations from a re-analysis of the deposited data

Results flagged for a closer look

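Of 90 groups of 4 tumours (45 members in either group), 10 held a tumour that lay far outside the other 3 by Dixon's criterion, and chance alone flags about 5% of groups. Of the 10, 7 were the high value of miR-21-KD replicate 2, with 12.9 CPM for Brca2, 9.03 for Rad51c, 10.3 for Rad54l, 6.99 for Rad54b, 8.17 for Eme1, 16.6 for Exo1 and 131 for Topbp1. The next highest miR-21-KD values of these genes were 8.80, 4.68, 6.40, 3.73, 4.13, 6.33 and 79.5 CPM. The proliferation sum of the same tumour was high as well, at 1966 CPM against 721 to 954 in the others of its group. Its leukocyte, fibroblast and adipocyte sums of 2045, 5906 and 428 CPM were instead the lowest of its group. The fibroblast sum was so only narrowly, with 6175 CPM in miR-21-KD replicate 3. The part of these sums in the flagged values was not tested. The remaining 3 were the low value of miR-21-KD replicate 1 for Fance (18.0 CPM) and the values of VC replicate 4 for Fancg (19.2 CPM, high) and Fancm (11.97 CPM, low).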

How the results depend on the processing

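Over 15 alternatives, no called member changed direction. With all tumours kept, the number of members called was 23 to 29 (24 as reported), and 22 of the 24 passed in each of these fits. DESeq2 gave 27 lower and 2 higher, upper-quartile scaling 23 and 2, a minimum of 10 counts in every tumour 23 and 2, and limma-voom 26 and 0. With the replicate block 27 were lower, the median was -0.58 and 46 other repair genes were called, and apart from the gains of Fanca, Exo1 and Rpa2 the block changed no call of a member. With 1 tumour left out, the members called ranged from 13 to 29 and the other repair genes called from 21 to 54 (43 as reported), the latter with 21, 22, 25, 22 and 27 without VC replicate 3, VC replicate 2, miR-21-KD replicate 3, miR-21-KD replicate 4 and miR-21-KD replicate 1. Over the same fits the share of all tested genes called lower ranged from 10.2% to 24.3% (19.5% as reported), and with all tumours kept it was 12.8% to 22.1%. With 1 tumour left out, the median log2 fold change of the members lay between -0.72 and -0.49.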
